A study of Mus musculus with 2 samples.

Results

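The islet hormone genes are the 8 genes Ins1, Ins2, Iapp, Gcg, Sst, Ppy, Pyy and Ghrl, whose products are the peptide hormones secreted by the endocrine cells of the pancreas. They were chosen by name: each probe whose gene symbol in the authors' deposited table was one of the 8 was taken. Every gene had 1 probe, giving 8 genes of 24278 with a symbol, 8 probes of 55681 on the array and 8 of the 37485 probes that passed the filter on dim signal. All 8 were well above background on all 8 arrays. The arrays measured RNA of isolated pancreatic islets from C57BL/6J mice aged 8 weeks. One group had 60% of the pancreas removed (pancreatectomy) 3 days earlier, and the other a sham operation at the same interval. Each group has 4 arrays, numbered here as replicates 1 to 4 by slide position, and the numbers pair no arrays. The labels do not say whether these come from separate mice, and p-values here reflect the scatter among arrays, which may be technical. The sham label lists 1 of its array positions a second time in place of the last, so that array's group was taken from the sample it was deposited under. Partial pancreatectomy leaves a remnant of the gland in place, and islets isolated after it come from that remnant.

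Insulin is made by beta cells, which in mice use a pair of insulin genes. Iapp, islet amyloid polypeptide, is packed and released with insulin. Alpha cells make glucagon from Gcg, delta cells make somatostatin from Sst and restrain their neighbours with it, and PP cells make pancreatic polypeptide from Ppy. Pyy encodes peptide YY, a close relative of pancreatic polypeptide that is made in the islet and in L cells of the gut. Ghrl encodes ghrelin, made mainly in the stomach and, in the islet, by rare epsilon cells. Each hormone is cut from a larger precursor by prohormone convertases and stored in dense granules, and its gene is switched on by homeodomain, basic helix-loop-helix and Maf transcription factors.

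The labelled tissue was checked against markers of islet cells. All 7 beta-cell markers, 6 alpha-cell markers and 3 delta-cell markers were well above background on each of the 8 arrays. The signal that 75% of the spots did not exceed ran between 178 and 655 across the arrays, a 3.69-fold range, and sham replicate 3 was the dimmest array, with 49.3% of its probes well above background. The mean log2 of that percentile was 8.76 in both groups. On the slide, pancreatectomy arrays lay in columns 3 and 4 and sham arrays in columns 1 and 2, and an effect of column cannot be told apart from one of surgery. Liver markers (14 of 14 measured) summed to between 66413.8 and 124884 signal units on pancreatectomy replicates 1 and 4 and to 119191 on sham replicate 4, against 5291 to 7677 on the other arrays. Acinar markers (10 of 10 measured) summed to 330777 to 997054 on pancreatectomy arrays and 221242 to 983412 on sham arrays, lowest on sham replicate 3, and their part in the hormone values was not tested. With the 3 arrays high in liver markers left out, each of the 8 hormone genes had a difference of the same sign as with all arrays, in a limma fit that called 0 of the kept probes (1689 at an unadjusted p under 0.05).

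The sequences just before the start sites are shown for Ins1 as a beta-cell gene, Gcg, Sst and the adjacent pair Ppy and Pyy. The transcription factors described further on act through such sites. Each run is the 250 bases before the RefSeq start site on the gene's own strand, build GRCm38.p6. Ins1 is at chr19:52264047-52264296 (plus strand), Gcg at chr2:62483654-62483903 (minus), Sst at chr16:23890845-23891094 (minus), Ppy at chr11:102101320-102101569 (minus) and Pyy at chr11:102107833-102108082 (minus). Capitals mark TAAT, the core bound by homeodomain factors, CANNTG, the E-box of basic helix-loop-helix factors, TGACGTCA, the cyclic AMP response element, and TGCTGAC, a Maf half-site, each searched on both strands.
Ins1: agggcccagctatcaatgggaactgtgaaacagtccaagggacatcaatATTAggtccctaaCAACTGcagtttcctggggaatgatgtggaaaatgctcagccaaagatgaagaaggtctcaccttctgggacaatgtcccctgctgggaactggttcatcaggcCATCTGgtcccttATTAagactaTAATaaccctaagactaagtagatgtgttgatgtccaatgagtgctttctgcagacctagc
Gcg: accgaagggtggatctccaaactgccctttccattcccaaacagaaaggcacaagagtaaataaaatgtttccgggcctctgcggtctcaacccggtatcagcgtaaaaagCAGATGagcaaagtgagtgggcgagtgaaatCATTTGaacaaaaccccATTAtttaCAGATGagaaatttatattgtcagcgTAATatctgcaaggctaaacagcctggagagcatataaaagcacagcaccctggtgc
Sst: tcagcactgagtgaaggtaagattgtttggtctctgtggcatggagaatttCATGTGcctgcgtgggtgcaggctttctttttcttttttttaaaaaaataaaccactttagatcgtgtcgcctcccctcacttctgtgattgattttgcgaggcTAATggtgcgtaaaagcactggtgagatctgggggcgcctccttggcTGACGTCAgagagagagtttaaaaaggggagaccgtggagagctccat
Ppy: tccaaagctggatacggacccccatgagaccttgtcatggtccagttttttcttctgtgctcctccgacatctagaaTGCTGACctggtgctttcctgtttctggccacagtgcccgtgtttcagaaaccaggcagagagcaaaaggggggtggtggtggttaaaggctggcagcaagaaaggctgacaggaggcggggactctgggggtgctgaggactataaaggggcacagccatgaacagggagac
Pyy: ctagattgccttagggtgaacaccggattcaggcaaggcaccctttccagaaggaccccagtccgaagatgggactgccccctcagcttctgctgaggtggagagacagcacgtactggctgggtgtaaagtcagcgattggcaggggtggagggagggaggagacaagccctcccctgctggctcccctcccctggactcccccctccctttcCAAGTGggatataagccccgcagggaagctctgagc
Of the 8 genes, 7 had a window in the table. TAAT occurred 3 times in the Ins1 window, 5 times in that of Iapp (a pair of these overlapping on opposite strands), 2 times in Gcg and 1 time in Sst, and not in those of Ppy, Pyy and Ghrl. Over all 32851 promoter windows of the same table, read over the same 250 bases, 54.9% held TAAT and 66.2% an E-box. Sst held the cyclic AMP response element, found in 1.55% of windows, and Ppy the Maf half-site, found in 3.81%. Ppy had no E-box, Pyy and Sst had 1, Ins1 had 2, and Gcg, Iapp and Ghrl had 3. A match describes letters only and says nothing of whether a factor binds there. Any bearing of these letters on the differences between groups was not tested.

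None of the 8 hormone genes passed the test between pancreatectomy and sham islets 3 days after surgery. The insulin genes, Iapp and Sst had the smallest differences, Gcg had the lowest value of the 8 on the log2 scale at -0.50, and Ppy, Pyy and Ghrl lay above 0 by between 0.35 and 0.46. With limma and Benjamini-Hochberg adjustment over all kept probes, 0 of 8 hormone probes were called at an adjusted p under 0.05, against 228 of 37485 probes, or 0.608%. At an unadjusted p under 0.05 there was 1 of 8 hormone probes (Ghrl), against 4064 probes or 10.8% of all. Of the 228, 198 were higher and 30 lower after pancreatectomy. That split was 142 and 52 with median scaling, 131 and 40 with quantile scaling, 120 and 49 with normexp background and quantile scaling, 40 and 0 with no scaling, and 130 and 1 with scaling to spike-in controls. In whole islets, fewer cells of a type and less RNA per cell cannot be told apart.

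**Figure D1:**
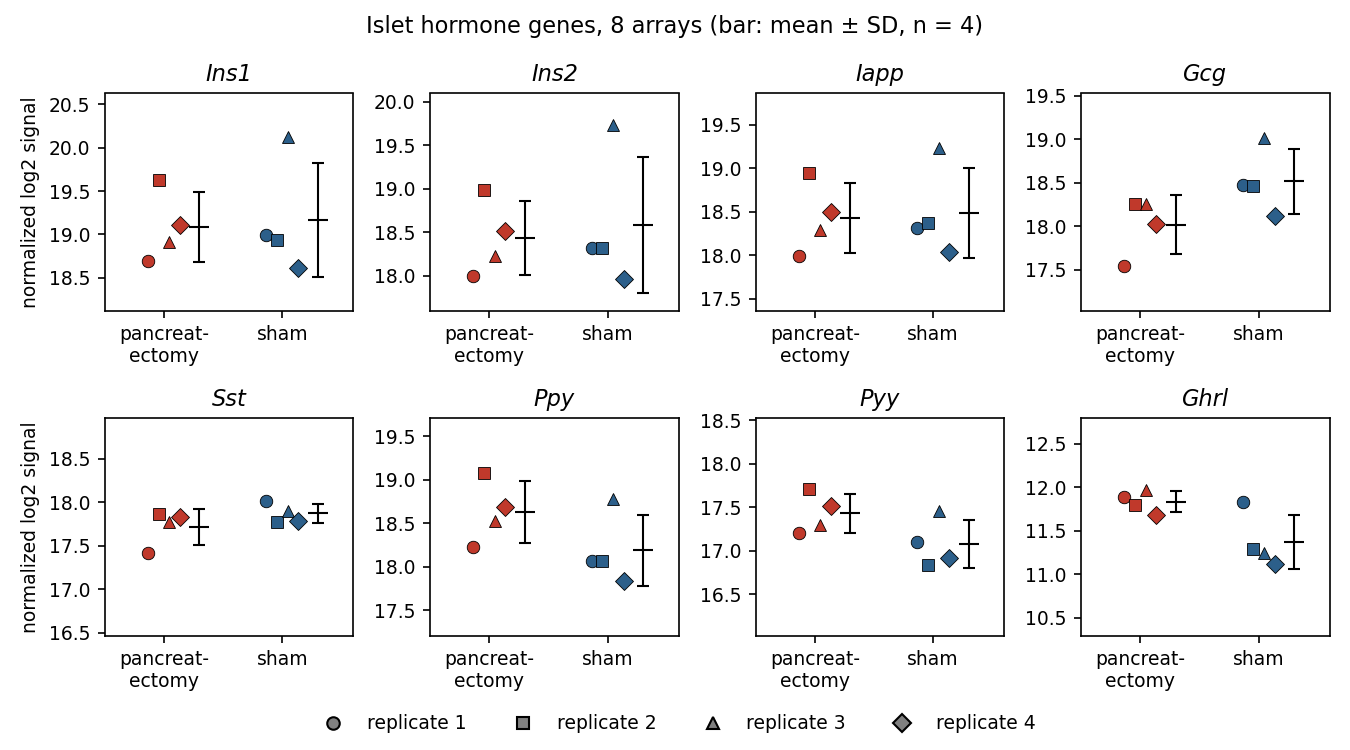
Normalized log2 signal of each hormone gene on the 4 pancreatectomy arrays (red, left) and the 4 sham arrays (blue, right), with 1 symbol per array, mean ± SD beside them, and the same span on every vertical axis. The groups overlapped for all 8 genes, and sham replicate 3 (triangle) was the highest of the 8 arrays for Ins1, Ins2, Iapp and Gcg.

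For the beta-cell hormones, Ins1 (probe A_55_P1959318, mm9 chr19:52339385-52339444, plus strand) had normalized log2 signals of 18.69, 19.63, 18.92 and 19.11 in pancreatectomy islets, against 18.99, 18.94, 20.12 and 18.62 in sham islets. The highest pancreatectomy array, replicate 2, and the highest sham array, replicate 3, stood well above the rest of their groups, and the ranges overlapped. The change was -0.082 ± 0.34 (SE, 95% interval -0.85 to 0.68, adjusted p = 0.946 by limma), and changes within that interval were not resolved. Ins2 (A_55_P1988839, mm9 chr7:149864566-149864625, minus strand) had signals of 18.00, 18.99, 18.23 and 18.51 in pancreatectomy islets and 18.32, 18.32, 19.73 and 17.96 in sham islets. The same arrays were high as for Ins1. The Ins2 change was -0.15 ± 0.39 (95% interval -1.02 to 0.72, adjusted p = 0.910 by limma).

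Iapp, which beta cells release with insulin, repeated the pattern of the insulin genes (A_66_P114856, mm9 chr6:142252275-142252334, plus strand). Its signals were 17.99, 18.95, 18.29 and 18.49 in pancreatectomy islets and 18.31, 18.38, 19.23 and 18.04 in sham islets. Replicate 2 of pancreatectomy and replicate 3 of sham were again the highest of their groups. The change was -0.059 ± 0.29 (95% interval -0.72 to 0.61, adjusted p = 0.955 by limma). The direction of these 3 genes depended on single arrays. Without sham replicate 3 Ins1 stood at 0.24 (95% interval -0.30 to 0.77), Ins2 at 0.23 (-0.33 to 0.80) and Iapp at 0.19 (-0.34 to 0.72), none of them called. Without pancreatectomy replicate 1, Ins1 stood at 0.049, Iapp at 0.088 and Ins2 at -0.0045.

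The raw signal of the insulin and Iapp probes varied less between arrays than the brightness of the arrays as a whole. Before scaling, the Ins2 signal ran between 324406 and 421838 over the 8 arrays, a 1.30-fold range, and that of Ins1 between 467307 and 670154, a 1.43-fold range, although the 75th percentile of the arrays spanned 3.69-fold. No spot was flagged as saturated, and the Ins1 spot's median signal was 58.5% to 80.7% of the saturation value in the file headers. The range widened through Iapp (1.71-fold), Gcg (2.33-fold), Ppy (2.48-fold), Pyy (3.04-fold) and Sst (3.42-fold) to Ghrl (5.60-fold). On sham replicate 3 the 75th percentile lay 1.72 below the mean of the other sham arrays.

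On that array the unscaled signal fell short of the other sham arrays by an amount that differed between the hormone probes. The difference in unscaled log2 signal was -0.19 for Ins2, -0.45 for Ins1, -0.73 for Iapp, -0.94 for Ppy and -1.06 for Gcg. It was -1.22 for Pyy, -1.68 for Sst and -1.88 for Ghrl. Over the kept probes the median difference was -1.57 for probes with a mean log2 signal between 14 and 16, -1.33 for the 272 probes between 16 and 18, and -0.73 for the 13 probes at or above 18. Those 13 include the hormone probes Ins1, Ins2, Iapp, Gcg and Ppy, so that last bin is thin and is in part the hormone genes themselves. The 7 spike-in control RNAs, added to the samples at a range of concentrations, differed by between -1.69 and -0.99. Scaling by the 75th percentile adds the same amount to every probe of an array, so it placed Ins1, Ins2, Iapp and Gcg above every other array on sham replicate 3, where their unscaled signals were not the highest.

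**Figure D2:**
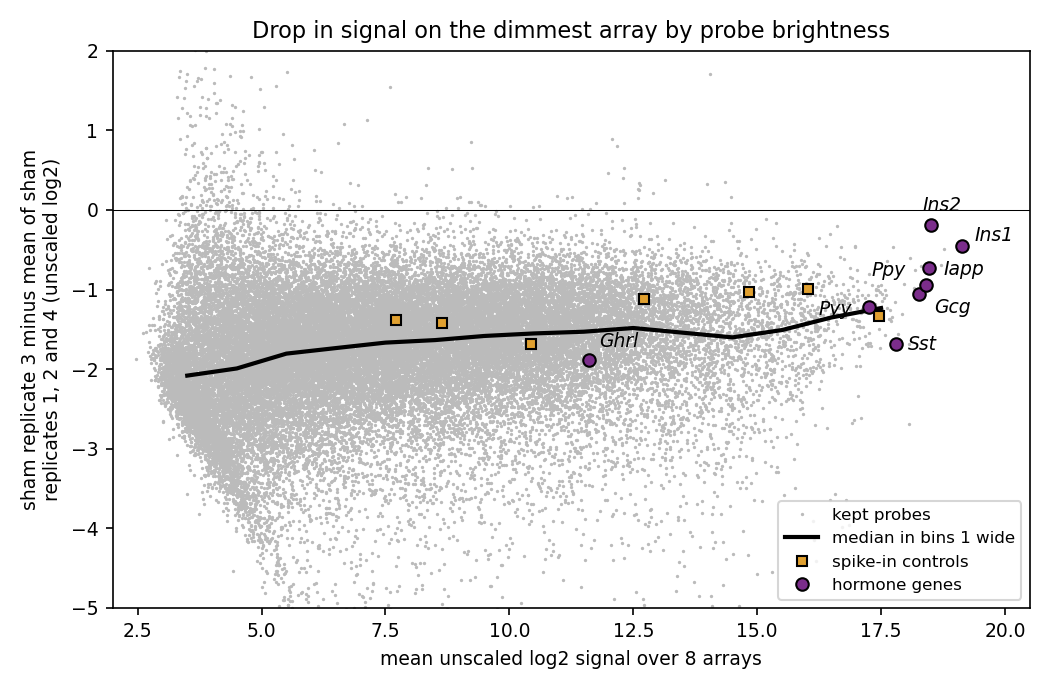
Unscaled log2 signal of sham replicate 3 minus the mean of the other sham arrays (vertical axis) against the mean unscaled log2 signal of the probe over 8 arrays (horizontal axis), for kept probes (grey), the 7 spike-in controls (squares) and the hormone genes (circles). The line is the median in bins 1 wide that hold at least 20 probes, and 210 of 37378 probes lie outside the vertical range. Ins2 at -0.19 and Ins1 at -0.45 lie closest to 0 of the hormone genes, and Ghrl at -1.88 farthest.

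The alpha-cell hormone gene Gcg (A_51_P406253, mm9 chr2:62312685-62312744, minus strand) had signals of 17.54, 18.26, 18.26 and 18.02 in pancreatectomy islets, against 18.48, 18.46, 19.01 and 18.11 in sham islets. Every pancreatectomy array lay below the sham mean, but sham replicate 4 lay below pancreatectomy replicates 2 and 3, so the groups overlapped. The change was -0.50 ± 0.24 (95% interval -1.03 to 0.042), or 0.709 times the sham level with an interval of 0.488 to 1.03, and the adjusted p was 0.497 by limma. Gcg had 10 spots on each array, whose SD within an array was 0.047 to 0.13, against an SD between arrays of 0.34 in pancreatectomy islets and 0.37 in sham islets. The spread between arrays thus exceeded that between spots. Without sham replicate 3 the Gcg change was -0.33, with an adjusted p of 0.512 by limma.

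Sst, the delta-cell hormone gene (A_51_P262489, mm9 chr16:23889776-23889835, minus strand), was the steadiest of the 8 after scaling. Its signals were 17.41, 17.86, 17.77 and 17.83 in pancreatectomy islets and 18.02, 17.77, 17.90 and 17.79 in sham islets. Pancreatectomy replicate 1 was the lowest array, and the other pancreatectomy arrays lay within 0.25 of every sham array. The change was -0.15 ± 0.15 (95% interval -0.50 to 0.19, adjusted p = 0.748 by limma). Without pancreatectomy replicate 1 it was -0.050. The 10 Sst spots of an array had an SD of 0.027 to 0.093.

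Ppy, which encodes pancreatic polypeptide (A_52_P460791, mm9 chr11:101961581-101961877, minus strand), had signals of 18.22, 19.07, 18.52 and 18.69 in pancreatectomy islets and 18.07, 18.07, 18.78 and 17.84 in sham islets. All 4 pancreatectomy arrays lay above the sham mean, and sham replicate 3 alone reached into their range. The change was 0.44 ± 0.25 (95% interval -0.13 to 1.01), a fold of 1.36 with an interval of 0.914 to 2.01, and the adjusted p was 0.570 by limma. Pyy, which encodes the related peptide YY (A_52_P366462, mm9 chr11:101968311-101968370, minus strand), had signals of 17.21, 17.71, 17.29 and 17.52 in pancreatectomy islets and 17.10, 16.84, 17.45 and 16.92 in sham islets. Again sham replicate 3 was the array that overlapped. The Pyy change was 0.35 ± 0.19 (95% interval -0.071 to 0.78, adjusted p = 0.541 by limma). Ppy and Pyy are neighbours on chromosome 11, with 0 annotated genes between them, and their probes lie 6433 bases apart on mm9. Without sham replicate 3 the Ppy change was 0.64 (95% interval 0.16 to 1.11, adjusted p = 0.244 by limma) and that of Pyy 0.48 (0.11 to 0.84, adjusted p = 0.252 by limma). Pancreatectomy replicate 2, the highest array for both genes, was the second dimmest array, with a 75th percentile of 280. Without it the Ppy change was 0.29 (adjusted p = 0.673 by limma) and that of Pyy 0.26 (adjusted p = 0.627 by limma).

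Ghrl, the ghrelin gene (A_55_P2022399, mm9 chr6:113666114-113666173, minus strand), had signals of 11.89, 11.79, 11.97 and 11.69 in pancreatectomy islets and 11.83, 11.29, 11.25 and 11.12 in sham islets. The pancreatectomy arrays lay close together, and sham replicate 1 was the array that fell among them. The change was 0.46 ± 0.18 (95% interval 0.050 to 0.87), a fold of 1.38 with an interval of 1.04 to 1.83. The unadjusted p of 0.0318 became an adjusted p of 0.410 by limma over all kept probes. Both Ghrl and Pyy are also made outside the pancreas, in stomach and gut. Of 12 gut epithelium markers, 8 were measured (Cdx2, Muc2, Krt20 and Phgr1 did not pass the filter). Their signals summed to 7774 to 20920 on pancreatectomy arrays, highest on replicate 3, and to 7620 to 13477 on sham arrays. Much of each sum was Vil1, at 12.77 to 13.62 on the log2 scale and highest on sham replicate 3. The mean log2 signal of the markers, each minus its sham mean, was 2.71 on pancreatectomy replicate 3. On the other arrays that mean was between -0.27 and 0.42. Cdx1, Fabp2, Lgals4, Tff3 and Sis were highest on pancreatectomy replicate 3, and Vil1, Cdh17 and Guca2a were not. Of 10 stomach markers, 6 were measured (not Gkn2, Tff1, Cblif or Atp4b). They summed to 1371 to 4607 on pancreatectomy arrays, lowest on replicate 1 and highest on replicate 3. On sham arrays they summed to 824 to 6313, highest on replicate 1. Ghrl was highest on pancreatectomy replicate 3 and second on replicate 1, and its highest sham array was replicate 1. Without pancreatectomy replicate 3 the Ghrl change was 0.42 and that of Pyy 0.40, against 0.46 and 0.35 with it. Without sham replicate 1 the Ghrl change was 0.61 (adjusted p = 0.255 by limma). The part of stomach or gut tissue in the Ghrl and Pyy values was not tested.

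The choice of scaling moved the Ppy and Pyy groups apart or together. With quantile scaling, which gives every array the same distribution, Ppy ranged over 18.63 to 18.73 in pancreatectomy islets and 18.01 to 18.15 in sham islets, with no overlap. The change was 0.63 ± 0.11 (adjusted p = 0.0575 by limma, with 0.456% of probes called), and 9.26% of all kept probes had groups that did not overlap under that scaling. With normexp background correction before it, Ppy was called at 0.60 ± 0.090 (adjusted p = 0.0378 by limma), the 1 hormone probe called under any of these settings, and there 0.451% of kept probes were called and 8.75% had groups without overlap. With spike-in scaling, chosen after seeing the data, Ppy ranged over 18.63 to 18.94 in pancreatectomy islets and 17.81 to 18.32 in sham islets (change 0.69 ± 0.19, adjusted p = 0.314 by limma, with 0.349% of probes called and 6.05% without overlap). With no scaling, 0.952% of probes had groups without overlap. There the Ppy groups ranged over 18.44 to 18.80 in pancreatectomy islets and 17.49 to 18.43 in sham islets. They missed overlapping only narrowly, with the lowest pancreatectomy array at 18.442 and the highest sham array at 18.435. The change with no scaling was 0.44 ± 0.47 (unadjusted p = 0.368 by limma).

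Pyy separated under fewer scalings. Its groups did not overlap with quantile scaling, at 17.45 to 17.58 in pancreatectomy islets and 16.91 to 17.14 in sham islets, or with spike-in scaling, at 17.34 to 17.71 in pancreatectomy islets and 16.89 to 17.02 in sham islets. Nor did they overlap with normexp background before quantile scaling, at 17.35 to 17.52 in pancreatectomy islets and 16.83 to 17.16 in sham islets. By limma the adjusted p of Pyy was 0.175 with quantile scaling, 0.103 with normexp before it and 0.344 with spike-in scaling. The groups of both genes overlapped with the 75th percentile shift (8.46% of probes without overlap), with normexp background before that shift (5.44%) and with median scaling (11.3%). Quantile scaling gave Ins1 the top value on all 8 arrays, so its difference of 0 there is fixed by the method. Ppy is among the 13 probes with a mean log2 signal of at least 18, where quantile scaling sets values by rank among few probes. Its SD over pancreatectomy arrays was 0.35 with the 75th percentile shift, 0.047 with quantile scaling and 0.088 with normexp before it. The small SE and the call of Ppy under quantile scaling thus reflect ranks as well as scatter among arrays. Spike-in scaling moved the median change of all kept probes to 0.21 and median scaling to -0.16.

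**Figure D3:**
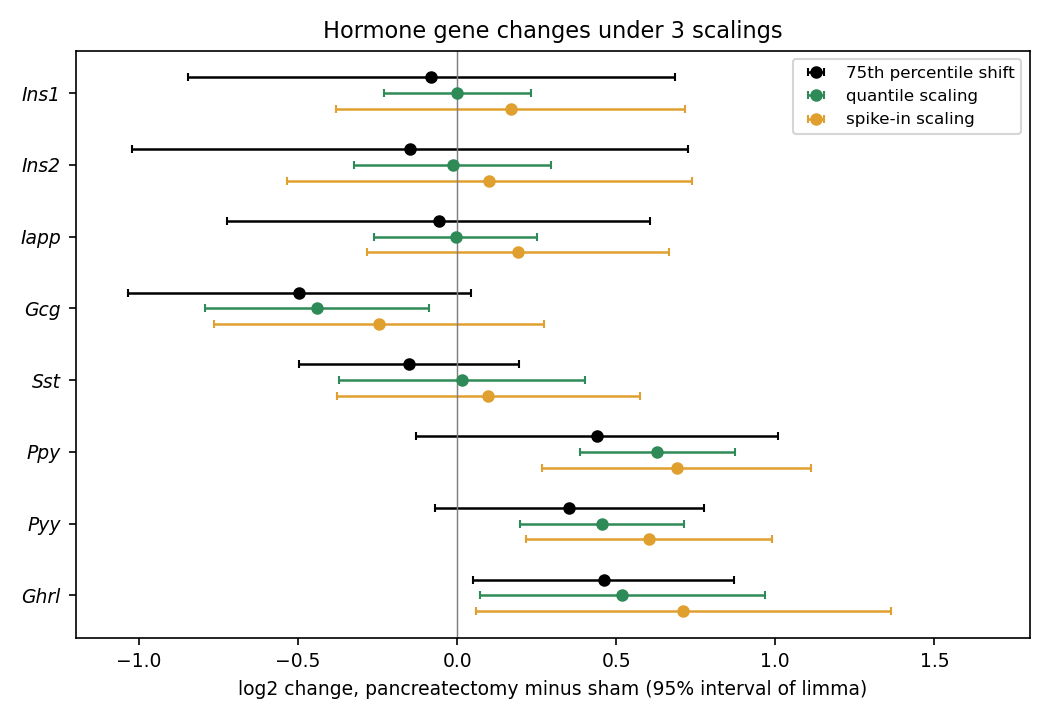
Log2 change, pancreatectomy minus sham, of each hormone gene (points) with the 95% interval of limma (bars) under the 75th percentile shift (black), quantile scaling (green) and spike-in scaling (orange). Ppy stood at 0.44, 0.63 and 0.69, Gcg at -0.50, -0.44 and -0.25, and the interval of Ins1 spanned 1.53 under the 75th percentile shift and 0.46 under quantile scaling.

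The difference between 2 hormone probes on the same array is the same under any scaling that shifts the whole array by a constant, though not under quantile scaling, and it keeps the unequal response of the probes to the brightness of the array described above. Each gene was set to 0 at its sham mean and the 28 pairs were read on each array, with no test, since the genes were chosen by name with results known. In 7 of 28 pairs the pancreatectomy arrays did not overlap the sham arrays. Ppy was in 4 of these, Gcg in 3 and Ghrl in 2. The clearest was Ppy minus Gcg, at 1.01, 1.15, 0.59 and 0.99 in pancreatectomy islets and -0.083, -0.062, 0.091 and 0.054 in sham islets. All 4 pancreatectomy arrays were thus above 0.5, and all sham arrays lay within 0.1 of 0.

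Ppy also stood above the beta-cell hormone genes on every pancreatectomy array. Ppy minus Iapp was 0.53, 0.43, 0.53 and 0.50 in pancreatectomy islets and 0.056, -0.0045, -0.15 and 0.10 in sham islets. Ppy minus Ins1 was 0.51, 0.43, 0.59 and 0.56 in pancreatectomy islets and 0.058, 0.11, -0.37 and 0.20 in sham islets. The pancreatectomy values of both pairs lay within 0.2 of each other, and the sham values spread more widely, down to sham replicate 3. Ppy minus Ins2 behaved likewise, at 0.48 to 0.68 in pancreatectomy islets and -0.56 to 0.27 in sham islets.

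The remaining separated pairs set Pyy or Ghrl against Gcg, or Ghrl against Sst. Pyy minus Gcg was 1.11, 0.89, 0.47 and 0.93 in pancreatectomy islets and 0.056, -0.18, -0.12 and 0.25 in sham islets. Ghrl minus Gcg was 1.49, 0.68, 0.85 and 0.81 in pancreatectomy islets and 0.49, -0.028, -0.62 and 0.15 in sham islets. Pancreatectomy replicate 1 was the highest array in both pairs. Ghrl minus Sst was 0.97, 0.43, 0.69 and 0.36 in pancreatectomy islets and 0.31, 0.010, -0.15 and -0.17 in sham islets.

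Such separation is common for some of these probes against any other probe. Against each of 37377 other kept probes, the groups did not overlap for 19.8% of partners with Ppy, 24.8% with Pyy, 15.9% with Ghrl, 10.7% with Gcg, 6.38% with Sst, 2.37% with Iapp, 1.61% with Ins1 and 1.21% with Ins2. Among partners with a mean log2 signal of at least 16 the share was 47.9% for Ppy, 52.1% for Pyy, 26.4% for Gcg, 9.12% for Ghrl, 5.99% for Sst, 1.06% for Iapp, 0.704% for Ins1 and 0.352% for Ins2. The beta-cell genes thus had few partners from which the groups separated, and Ppy was among the few for each of Ins1, Ins2 and Iapp. Against each other, Ins1 minus Ins2 was between 0.0055 and 0.11 in pancreatectomy islets and between -0.19 and 0.081 in sham islets, and the groups overlapped. Ppy minus Pyy, the adjacent pair, was between -0.094 and 0.26 in pancreatectomy islets and between -0.19 and 0.21 in sham islets, again overlapping.

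**Figure D4:**
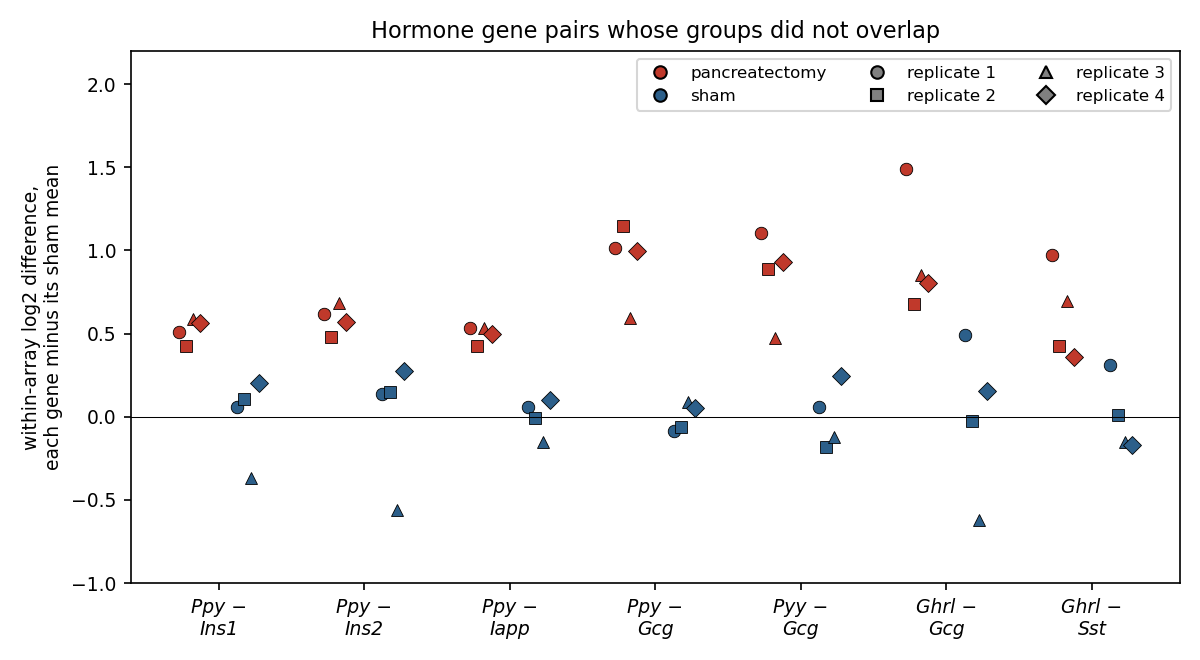
Within-array log2 difference between hormone genes, each gene minus its sham mean (vertical axis), for the 7 of 28 pairs whose groups did not overlap, with 1 symbol per array, pancreatectomy in red at left and sham in blue at right of each pair. Ppy minus Gcg lay between 0.59 and 1.15 in pancreatectomy islets and between -0.083 and 0.091 in sham islets.

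Of the transcription factors that switch on hormone genes, 1 passed the test. Of 14 such genes 13 were measured, 0 rose and 1 fell by the test, and 13 of 13 changes of the brightest probe were below 0, with a median of -0.42 against -0.040 over all kept probes. An unadjusted p under 0.05 in limma was seen for 6 of the 13, against 10.8% of all kept probes. Where a factor had a second kept probe, it lay above 0 for Pax6 (0.15) and Nkx2-2 (0.070) and below 0 for Neurod1 (-0.63) and Foxa2 (-0.39). With spike-in scaling 0 of the 13 were called and the median was -0.17, against 0.21 over all kept probes. With no scaling 0 were called.

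Among the factors that did not pass, Nkx6-1, a beta-cell homeodomain factor, averaged 13.45 ± 0.14 in pancreatectomy islets and 14.10 ± 0.38 in sham islets (SD, n = 4 arrays each; change -0.65, adjusted p = 0.304 by limma). Foxa2, a forkhead factor of endoderm, differed by -0.52 (adjusted p = 0.453 by limma) and its second kept probe by -0.39. Pdx1, which binds TAAT sites in the insulin promoter, had signals of 9.97, 10.04, 9.91 and 10.17 in pancreatectomy islets and 10.36, 10.49, 10.80 and 10.47 in sham islets, without overlap (change -0.51, adjusted p = 0.267 by limma). Over all kept probes 10.8% had an unadjusted p under 0.05 in limma, and 8.46% had groups without overlap. The beta-cell markers, which include Pdx1 and Nkx6-1, had 0 of 7 called, 4 with an unadjusted p under 0.05 in limma, and a median of -0.51. The delta-cell markers had 0 of 3 called, 1 with an unadjusted p under 0.05 in limma, and a median of -0.38. The alpha-cell markers had 1 of 6 called, 4 with an unadjusted p under 0.05 in limma, and a median of -0.91, beside the Gcg change of -0.50. The called marker is the same gene as the called transcription factor, so the lists share 1 call. Among the alpha-cell markers 0 were called with no scaling or spike-in scaling and 3 with median scaling. Their median was -0.66 with the spike-ins, against 0.21 over all kept probes.

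The enzymes and granule proteins that turn prohormones into hormones did not move together. Of 13 genes, all measured, 0 were called and 2 had an unadjusted p under 0.05 in limma, against 10.8% of all kept probes. Of the changes 6 were above 0 and 7 below, with a median of -0.080. That median was 0.10 with quantile scaling and 0.17 with spike-in scaling, so its sign depends on the scaling. Over all kept probes the median was -0.040 in the main setting, -0.046 with quantile scaling and 0.21 with spike-in scaling. Pcsk1n, which encodes proSAAS, an inhibitor of the convertase PC1, had signals of 15.44, 16.07, 15.57 and 16.03 in pancreatectomy islets and 16.24, 16.28, 16.99 and 16.15 in sham islets. Its groups did not overlap, and its change of -0.64 ± 0.24 had an adjusted p of 0.394 by limma. Mboat4, which encodes the enzyme that acylates ghrelin, was well above background on 4 of 8 arrays, with a change of -0.58. Vgf, a granule protein, stood at 0.47 and Pam, which amidates peptides such as pancreatic polypeptide, at 0.46 (adjusted p = 0.480 and 0.422 by limma).

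The receptors for these hormones were likewise without a call. Of 19 genes 15 were measured, 0 were called and 1 had an unadjusted p under 0.05 in limma, against 10.8% of all kept probes. Of the changes 10 were below 0 and 5 above, with a median of -0.19. The median was 0.060 with spike-in scaling, a change of sign, while that of all kept probes went from -0.040 to 0.21. Gcgr, the glucagon receptor, had signals of 11.65, 11.91, 11.39 and 11.91 in pancreatectomy islets and 12.04, 12.32, 12.35 and 12.24 in sham islets, without overlap (change -0.52 ± 0.17, adjusted p = 0.313 by limma). Glp1r, the receptor for the glucagon-like peptide 1 that Gcg also encodes, stood at -0.39, and Ghsr, the ghrelin receptor found on delta cells, at -0.38. Sstr1, a somatostatin receptor, stood at 0.42.

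Other peptide hormone genes were read as a comparison with the 8. Of 13 genes 11 were measured, 0 were called and 3 had an unadjusted p under 0.05 in limma, against 10.8% of all kept probes. Of the changes 8 were above 0 and 3 below, with a median of 0.17. Cck, which encodes cholecystokinin, had signals of 8.37, 5.68, 8.15 and 5.86 in pancreatectomy islets and 5.59, 5.38, 5.06 and 5.19 in sham islets. Pancreatectomy replicates 1 and 3 were far above the rest and the groups did not overlap, but the change of 1.71 ± 0.61 had an adjusted p of 0.375 by limma. Gal, the galanin gene, averaged 10.77 ± 0.12 in pancreatectomy islets and 11.18 ± 0.10 in sham islets (SD, n = 4 arrays each; change -0.40, adjusted p = 0.339 by limma). Ucn3, the urocortin of mature beta cells, differed by -0.59 (adjusted p = 0.344 by limma). Sct, the secretin gene of gut S cells, differed by 0.35 and was highest, at 9.27, on pancreatectomy replicate 3, the array with the highest gut marker sum.

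The genes whose profiles over the 8 arrays were closest to each hormone gene were found among 18600 genes, by the root mean square distance between centred log2 values. For Ins1 these were Rn18s, the 18S ribosomal RNA (0.067), Fam183b (0.079) and Zfp628 (0.090), and Ins2 was at 0.091. Rn18s and Zfp628 are among the 13 probes with a mean log2 signal of at least 18. Ins2 was closest to Ppp1r12a (0.086), Ins1 (0.091) and Fam183b (0.097), and Iapp to Zfp628 (0.049), Chga, the granule protein chromogranin A (0.076), and Hs3st1 (0.084). Ins1 and Iapp were 0.097 apart, and Ins2 and Iapp 0.18.

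The other hormone genes were closest to genes outside the list. Gcg was closest to Coq4 (0.12), Kcnh3 (0.13) and LOC100503774 (0.13), and Sst to Ptk2b (0.049), Fndc5 (0.060) and Sh3bgrl2 (0.063). Ppy was closest to Chl1 (0.12), Panct2 (0.13) and Prph (0.13), with Pyy at 0.16. Ppy and Pyy were thus closer to each other than to any other of the 8 hormone genes. Pyy was closest to AV026068 (0.090), Cyp2s1 (0.090) and Slc39a11 (0.097), and Ghrl to Tcim (0.11), Dock1 (0.12) and Ly6c1 (0.13). The median distance over all genes was between 0.30 for Sst and 0.57 for Ins2.

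The authors' deposited table of group averages gave differences close to these values. In the authors' deposited table Ppy averaged 407472 raw signal units in pancreatectomy islets and 309797 in sham islets, and its normalized log2 difference was 0.45. Gcg averaged 273371 raw units in pancreatectomy islets and 392560 in sham islets in the authors' deposited table, with a difference of -0.49. The signs of all 8 hormone genes were the same there as in the array values. That table averages the same 8 arrays after the same kind of shift, so it checks the processing only and is no independent support.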

How the data were processed

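Islet RNA was measured on 8 one-colour arrays (Cy3), 4 per group. The deposited scanner files hold the intensity of each spot on a linear scale, background-subtracted and detrended within the array and not scaled between arrays, and per the file headers come from version 10.7.3.1 of Feature Extraction (9.1 per the submitters' processing notes). The authors' deposited table holds group averages of raw intensity and of log2 values after a 75th percentile shift in GeneSpring GX 12.5, per the file headers. It supplied gene symbols and a check of the processing, since it averages the same arrays.

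Control spots and 113 to 228 outlier spots per array were left out, and no spot was saturated. From the log2 of each processed signal the array's own log2 75th percentile was subtracted, the average percentile of the 8 arrays was then restored, and spots of a probe were averaged. The filter asked for signal well above background on 4 or more arrays and for 3 or more values in each group. Each kept probe was tested on its own with limma 3.58.1 in R 4.3.3 over all 8 arrays, with Benjamini-Hochberg adjustment and a threshold of 0.05. Summaries used Python 3.11.15. The test was also run on simulated data that had the means and spreads of the kept probes. A list is read by its brightest kept probe per gene, and marker sums add the scaled signals on the linear scale. Of 33325 probes with a symbol, 30994 were matched to RefSeq through Entrez IDs and took the symbol given there. Probes are placed on mm9 as in the array design, per the file headers, and promoters come from RefSeq on GRCm38.p6, with 7 of 8 genes matched. Named beside the 8 genes are, in each non-marker list, the called members and the 4 with the largest absolute change, and the 3 nearest profiles of each hormone gene. A called member of the lists falls under that rule and is not reported here. The 8 genes and all lists were chosen with earlier results of these data known. Normexp (offset 50) used the median signal and background columns. Precision is limited by the number of arrays. Alternatives were other scalings, background correction, probe filters, probe summaries, weights, slide row and left-out arrays.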

Additional observations from a re-analysis of the deposited data

Results flagged for a closer look

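In groups of 4 arrays, a single array stood far from the other arrays of its group for 5 values among 70 groups of values tested, where chance gives about 1 in 20. Pcsk1n, the gene of the convertase inhibitor proSAAS, was 16.99 on sham replicate 3, above the other sham arrays. Sct, the secretin gene, was 9.27 on pancreatectomy replicate 3. On the same array the gut epithelium markers summed to 20920 signal units and the B-cell and plasma cell markers to 17652. The liver markers summed to 119191 on sham replicate 4.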

How the results depend on the processing

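limma called no hormone gene in 26 of 27 settings, and 1 (Ppy) with normexp background and quantile scaling. Gcg stayed below 0 (-0.63 to -0.25) and Ppy (0.29 to 0.77), Pyy (0.22 to 0.60) and Ghrl (0.28 to 0.71) above 0 in all 27 alternatives run for each. Several of these could not differ. The probe filters, probe summaries, an intensity trend in limma and the slide row block leave each difference as it was. The authors' deposited averages come from the same arrays. Ins1, Ins2 and Iapp each changed sign in 7 alternatives and Sst in 2, and the cause was not tested. With spike-in scaling Ins1 was 0.17, Ins2 0.10, Iapp 0.19 and Sst 0.098. With array weights Ins1 was 0.080, Ins2 0.048 and Iapp 0.022. Within slide row 1 they were 0.20, 0.17 and 0.13, without pancreatectomy replicates 1 and 3 they were 0.20, 0.17 and 0.23, and with pancreatectomy replicate 2 against sham replicates 1 to 3 they were 0.28, 0.20 and 0.31. Ins2 was 0.018 with normexp and quantile scaling, and Sst 0.015 with quantile scaling. Leaving out 1 array at a time gave -0.27 to 0.24 for Ins1, -0.36 to 0.23 for Ins2, -0.23 to 0.19 for Iapp and -0.20 to -0.050 for Sst.

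Over all kept probes, 228 were called. The count was 40 with no scaling, 58 with normexp and the 75th percentile shift, 131 (130 higher, 1 lower) with spike-in scaling, 79 with no filter on dim probes and 141 (105 higher, 36 lower) with probes well above background on all 8 arrays. Array weights gave 1476 (689 higher, 787 lower). It was 61 to 203 when 1 array was left out (62, 140 and 149 without pancreatectomy replicates 4, 1 and 3, and 61, 92 and 103 without sham replicates 2, 1 and 4), and 15 without pancreatectomy replicates 1 and 3. limma called 0 within slide row 1 (2447 at an unadjusted p under 0.05), 0 within slide row 2 (1134), 0 without the 3 arrays high in liver markers (1689) and 0 with pancreatectomy replicate 2 against sham replicates 1 to 3 (2098). In the last of these the lone pancreatectomy array is assumed to vary like the sham arrays, so its count has no replication in that arm. No paired analysis was possible because the labels give the arrays no replicate numbers shared between groups, and the numbers used here only name them. With slide row as a block the count was 128. Depth cannot be read from arrays, and with 4 arrays per group the hormone gene intervals spanned 0.69 to 1.75 on the log2 scale.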

Other observations

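The alpha-cell markers Irx1 and Irx2, homeodomain factors of the alpha cell, were low in pancreatectomy islets, and they are named after their values were seen. Irx1 averaged 9.31 ± 0.63 in pancreatectomy islets and 11.08 ± 0.32 in sham islets (SD, n = 4 arrays each), a change of -1.77 with an adjusted p of 0.0530 by limma. Irx2 averaged 8.04 ± 0.43 in pancreatectomy islets and 9.38 ± 0.34 in sham islets, a change of -1.35 with an adjusted p of 0.0709 by limma. A second kept probe of Irx2 differed by -0.99 (adjusted p = 0.243 by limma). Neither gene passed the test. The groups did not overlap for the brightest probe of either gene, as for 8.46% of all kept probes. Ttr and Gc, of the same list, differed by -0.33 and 0.41. Gc was highest in pancreatectomy islets on replicates 1 and 4 (15.14 and 14.81) and in sham islets on replicate 4 (14.37). These are the 3 arrays high in liver markers, whereas Ttr was highest on sham replicate 1 (17.41). The part of liver tissue in the values of these markers was not tested.

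Cck was high on pancreatectomy replicates 1 and 3. On these arrays the fibroblast markers (7 of 7 measured) summed to 112560 and 48360 signal units, against 7046 to 7615 on the other pancreatectomy arrays and 5545 to 10891 on sham arrays. The macrophage markers (7 of 8 measured) summed to 21527 and 19019 on them, against 9040 to 10330 on the other pancreatectomy arrays and 11919 to 14019 on sham arrays. The part of these cells in the Cck values was not tested.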
